A study of Mus musculus with 3 samples.

Results

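The MHC class II genes *H2-Aa*, *H2-Ab1*, *H2-Eb1*, *H2-DMa*, *H2-DMb1*, *Cd74* and *Ciita*, 7 of the 32285 features counted, were followed across 6 classes of tumor-infiltrating leukocytes. These genes were chosen by name. The cells came from MC38-Ova colon carcinoma tumors grown under the skin of wild-type C57BL/6 Kaede mice, whose cells carry a protein that light converts from green to red. Both the green and the red cells came from tumors treated with an isotype control antibody. Tumors were illuminated on day 13 after injection of 250000 cells and taken 48 h later, on day 15, so that cells that were still green (KG+) entered within the last 48 h and red cells (KR+) had stayed for 48 h or longer. Live CD45+ Ter119- cells were sorted with the CD11b+ NK1.1- cells left out, which limits which myeloid cells the data hold. There were 2 KG+ libraries, labeled as biological replicates, and 1 KR+ library of single-cell 3′ RNA sequencing, with 34781 cell barcodes, of which 31943 passed the filters. Libraries, not cells, served as replicates, with library as a term of the fit. The p-values therefore measure how far the differences between classes varied from library to library, over 2 KG+ libraries and 1 KR+ library. The spread was estimated over all classes together. The number of mice behind each library was not given in the sources used here.

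MHC class II molecules display peptides from ingested material to CD4 T cells and are a hallmark of professional antigen-presenting cells, namely B cells, dendritic cells and macrophages. *H2-Aa* and *H2-Ab1* encode the α and β chains of I-A and *H2-Eb1* the β chain of I-E, while *Cd74* encodes the invariant chain, which occupies the peptide groove until the molecule reaches the endosome. *H2-DMa* and *H2-DMb1* encode chains of H2-DM, which removes the last piece of the invariant chain and loads peptide, and *Ciita* encodes the coactivator that switches the whole group on. CIITA binds no DNA itself but docks on factors at the W/S, X and Y boxes of class II promoters.

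In the GRCm38 annotation the 5 H2 members lie within the class II region of chromosome 17 and *Ciita* on chromosome 16. The plus strand carries *H2-DMa* (ENSMUSG00000037649, chr17:34119541-34139101), *H2-DMb1* (ENSMUSG00000079547, chr17:34153072-34160230), *H2-Ab1* (ENSMUSG00000073421, chr17:34257689-34269419) and *H2-Eb1* (ENSMUSG00000060586, chr17:34305867-34316674), and the minus strand *H2-Aa* (ENSMUSG00000036594, chr17:34282744-34287823). *Ciita* (ENSMUSG00000022504) lies at chr16:10480059-10528418 on the plus strand. The annotated span of *H2-DMa* overlaps 4 genes, among them *Brd2* on the opposite strand. That of *H2-Eb1* overlaps an antisense gene, and that of *Ciita* overlaps *Dexi*. Whether the counting used strand was not given in the sources used here.

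Promoters of 3 members and of the *H2-DMb1* paralog *H2-DMb2* are shown, since these genes are compared across the antigen-presenting classes below. The RefSeq promoter table for GRCm38.p6 held windows from 250 bases before to 50 bases after the start for *H2-Aa*, *H2-Eb1*, *H2-DMa* and *H2-DMb1*, and none for *H2-Ab1* and *Ciita*. The promoter of *Cd74* was not examined. Each line gives the 110 bases that end 31 bases before the start, on the strand of the gene, and capitals mark a Y box (ATTGG) and, upstream of it, an X box (AACNNATG). The stretches are chr17:34287854-34287963 on the minus strand for *H2-Aa*, and on the plus strand chr17:34305727-34305836 for *H2-Eb1*, chr17:34153051-34153160 for *H2-DMb1* and chr17:34145109-34145218 for *H2-DMb2*.
H2-Aa: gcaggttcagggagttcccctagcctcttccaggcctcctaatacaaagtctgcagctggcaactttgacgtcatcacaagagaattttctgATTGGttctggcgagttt
H2-Eb1: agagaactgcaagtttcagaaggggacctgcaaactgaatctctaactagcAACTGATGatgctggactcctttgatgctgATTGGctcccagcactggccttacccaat
H2-DMb1: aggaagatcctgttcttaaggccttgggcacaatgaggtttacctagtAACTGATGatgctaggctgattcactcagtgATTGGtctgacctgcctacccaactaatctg
H2-DMb2: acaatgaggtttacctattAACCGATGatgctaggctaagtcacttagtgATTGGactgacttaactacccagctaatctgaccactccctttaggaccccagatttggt

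The X and Y boxes began 30 bases apart in *H2-Eb1* and 31 bases apart in *H2-DMb1* and in *H2-DMb2*. In *H2-Aa* the Y box began 48 bases before the start and the letters AACNNATG were not in the window. The same pair was found in *H2-Eb2*, 30 bases apart, and *H2-Ob*, 28 bases apart, but in neither of the 2 windows of *H2-DMa* nor in *H2-Oa*. Of all 32851 promoter windows, 37.4% held ATTGG and 8.86% held AACNNATG, on either strand. The X box 25 to 35 bases before a Y box on the same strand occurred in 27 windows (0.0822%). That spacing was chosen after these promoters had been seen, so the match is a description.

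Cells were placed in classes by raw counts of unique molecular identifiers (UMIs) of marker genes that are not members. B cells had at least 2 *Cd79a* UMIs, and plasmacytoid dendritic cells (pDCs) at least 2 *Siglech* UMIs. Myeloid cells had at least 5 *Lyz2* and 3 *Cst3* UMIs, and CD8 T cells at least 2 *Cd3e* UMIs with *Cd8a* and *Cd8b1*. NK lineage cells had *Ncr1*. Of these, ILC-like cells had at least 2 *Rora* UMIs and no *Eomes*, and the remainder are called other NK cells. In KG+ 1, KG+ 2 and KR+ respectively, there were 207, 133 and 9 B cells, 114, 184 and 75 pDCs, 26, 85 and 37 myeloid cells, 93, 160 and 252 ILC-like cells, 2497, 2480 and 2915 other NK cells, and 2420, 3460 and 4260 CD8 T cells. All values below are given in that order of libraries unless stated. Levels are given as CPM, the UMIs of a gene relative to all UMIs of the class in that library. A 3′ UMI stands for 1 transcript whatever its length, so levels of different genes are set side by side without dividing by length.

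The libraries differed in depth, with a median of 6628, 8512.5 and 12076 UMIs per cell kept, and shared between 20 and 36 cell barcodes with each other. Markers of B cells summed to 2224, 1781 and 874.6 CPM over 5 genes in the B class and to at most 50.4 CPM in any other. In the KR+ B class, 1 of the 9 cells held 11521 of the 11864 *Igkc* UMIs, *Igkc* being an immunoglobulin light chain gene. The myeloid class differed between libraries. The macrophage genes *C1qa*, *C1qb* and *C1qc* were at 0 in its KG+ 1 cells, and 22 of 26, 54 of 85 and 3 of 37 myeloid cells had a UMI of *Flt3*, a receptor of dendritic cells, and no C1q UMI. It is therefore called myeloid for its *Lyz2* and *Cst3* gate and not macrophage. ILC-like cells had more *Il7r* than other NK cells (99.2, 72.8 and 44.3 against 13.1, 15.9 and 5.84 CPM), yet CD8 T cells had more still (222, 220.9 and 254.98 CPM).

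The antigen-presenting chains were highest in myeloid and B cells, clearly lower in pDCs and low in NK and T cells. *H2-Aa* measured 7369, 5269 and 3403 CPM in myeloid cells and 5712, 4351 and 2425 CPM in B cells. It measured 1090, 670 and 1646 CPM in pDCs. Myeloid and B cells overlapped, pDCs lay below both in every library, and KR+ was the lowest library in both of these but the highest in pDCs. *H2-Aa* reached 36.0, 43.7 and 81.8 CPM in ILC-like cells, 52.9, 53.6 and 7.22 CPM in CD8 T cells, and 28.4, 65.8 and 6.61 CPM in other NK cells. These 3 classes overlapped, and within CD8 T and other NK cells the KR+ library was far below both KG+ libraries. As means, with the 9-cell B class of KR+ left out of this order, *H2-Aa* was 5347 ± 1984 CPM in myeloid cells (SD, n = 3), 5031 ± 963 in B cells (SD, n = 2), 1136 ± 489 in pDCs, 53.8 ± 24.6 in ILC-like cells, 37.9 ± 26.6 in CD8 T cells and 33.6 ± 29.9 in other NK cells (SD, n = 3 each).

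The other I-A and I-E chains followed the same order. *H2-Ab1* measured 7071, 5486 and 3198 CPM in myeloid cells, 4507, 3804 and 1901 in B cells, 775, 461 and 1111 in pDCs, and 52.3, 80.1 and 77.1 in ILC-like cells. In other NK and CD8 T cells it lay between 12.1 and 76.5 CPM. *H2-Eb1* measured 4975, 4054 and 2642 CPM in myeloid cells, 3830, 3113 and 1784 in B cells, 444, 282 and 900.0 in pDCs, and 73.0, 46.1 and 83.7 in ILC-like cells. Neighbors in the order of *H2-Ab1* overlapped except at the steps from B cells to pDCs and from pDCs to ILC-like cells. For *H2-Eb1* the ILC-like libraries also lay above all CD8 T libraries, which ranged from 5.62 to 43.9 CPM.

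*Cd74* was the most abundant member in every class. It measured 17125, 12585 and 7906 CPM in B cells, 16632, 12730 and 8491 CPM in myeloid cells, and 4187, 3211 and 5380 CPM in pDCs. B and myeloid cells overlapped, and both lay above pDCs in every library. ILC-like cells had 275, 224 and 367 CPM, above the 171, 180 and 64.8 CPM of CD8 T cells with no overlap, and other NK cells had 76.0, 174 and 34.1 CPM. The KR+ B class without its *Igkc*-rich cell measured 11730 CPM of *Cd74* and 4303 CPM of *H2-Aa*, the latter close to KG+ 2.

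*Ciita* was scarce throughout. B cells had 48.02, 41.7 and 70.0 CPM, from 46, 36 and 6 UMIs, and myeloid cells 50.6, 49.6 and 10.9 CPM, from 20, 74 and 6 UMIs. In pDCs it measured 6.88, 6.01 and 12.8 CPM, from 9, 14 and 14 UMIs. All pDC libraries lay below all B libraries, while the KR+ myeloid cells fell to the pDC range. ILC-like cells had 1, 2 and 3 *Ciita* UMIs in all, and the 3 lowest classes lay between 0.604 and 1.22 CPM.

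The H2-DM genes differed from the I-A and I-E chains in that B cells did not lie above pDCs in every library. By mean, with the KR+ B class left out, *H2-DMa* still ran from myeloid cells to B cells to pDCs. *H2-DMa* measured 703, 591 and 379 CPM in myeloid cells, 395, 357 and 105 CPM in B cells, and 369, 389 and 349 CPM in pDCs. B cells and pDCs overlapped. *H2-DMb1* measured 991, 787 and 324 CPM in myeloid cells, 226, 183 and 220 CPM in pDCs, and 103, 108 and 34.98 CPM in B cells. Here every myeloid library lay above every pDC library and every pDC library above every B library, so that pDCs and B cells stood in the reverse of their order for *H2-Aa*. This reversal depends on how counts divided between *H2-DMb1* and its paralog *H2-DMb2*, described below. Summed, the pair gave 769, 631 and 338 CPM in B cells and 234, 188 and 260 CPM in pDCs.

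Relative to *H2-Aa*, pDCs held far more *H2-DMa*. For every 100 *H2-Aa* UMIs, B cells had 6.91, 8.20 and 4.33 *H2-DMa* UMIs, myeloid cells 9.54, 11.2 and 11.1, and pDCs 33.9, 58.1 and 21.2. CD8 T cells had 40.3, 37.0 and 185 and other NK cells 78.7, 39.9 and 249, the highest values being in KR+. *H2-DMa* varied little between libraries in these classes (21.3, 19.8 and 13.4 CPM in CD8 T cells, 22.3, 26.2 and 16.5 in other NK cells), while *H2-Aa* varied widely. *Brd2*, which overlaps *H2-DMa*, lay between 118 and 193 CPM in every class, and its part in the *H2-DMa* level of T and NK cells was not tested. *Cd74* was the steadier partner of *H2-Aa*, with 226 to 249 UMIs for every 100 in myeloid cells, 289 to 326 in B cells and 327 to 479 in pDCs.

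**Figure D1:**
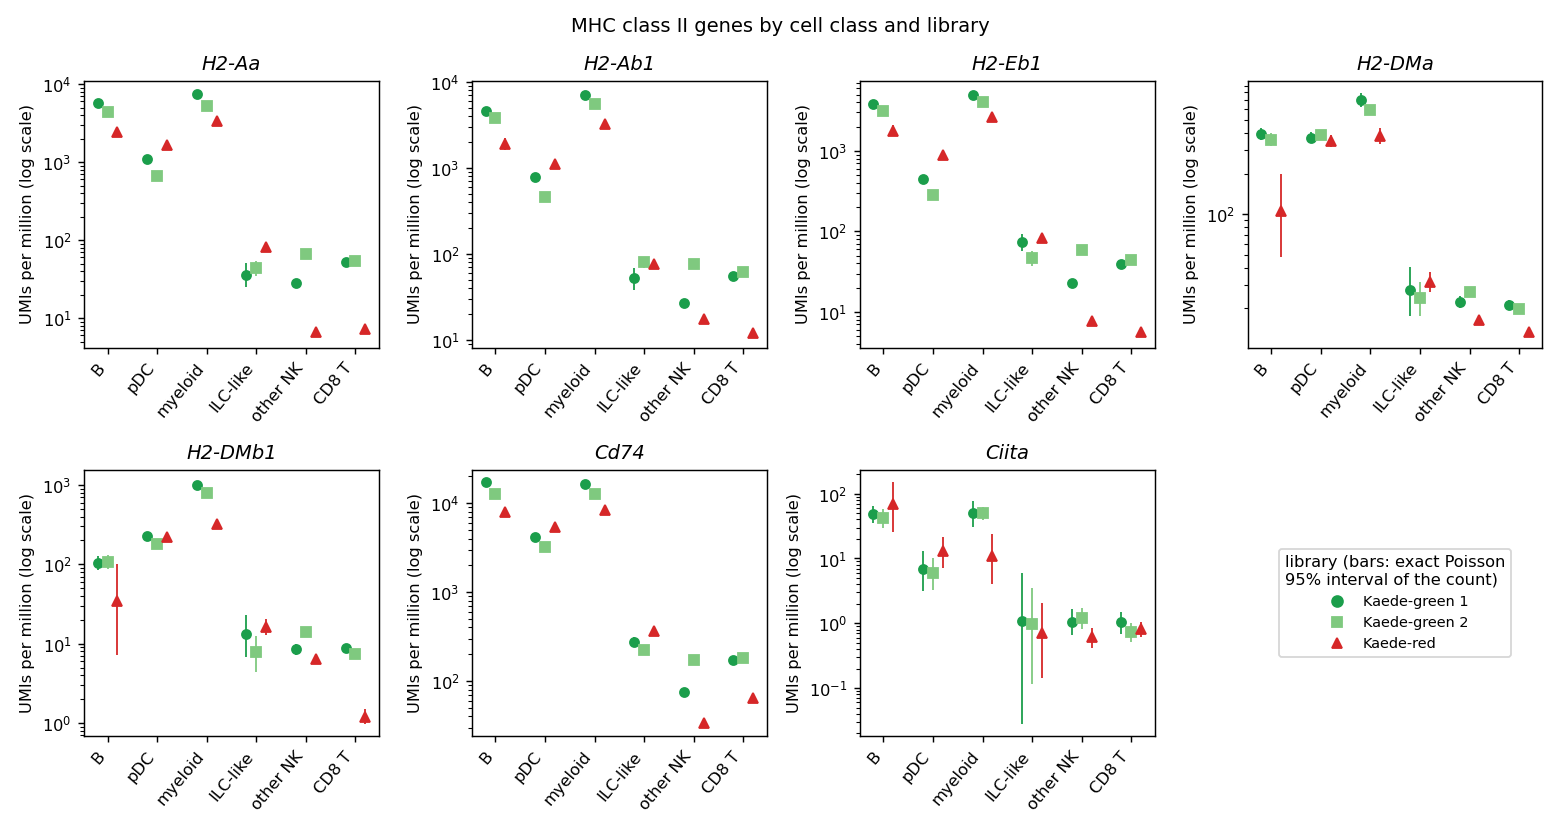
CPM of each of the 7 genes (log axis) in the 6 classes, 1 point for each library with its exact Poisson 95% interval, which covers counting error only. Myeloid, B and pDC points lie above the ILC-like, other NK and CD8 T points in all panels, though some intervals of *H2-DMb1* and *Ciita* overlap. In CD8 T cells the KR+ point of *H2-Aa* (7.22) lies below both KG+ points (52.9 and 53.6).

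Differences between classes were tested by edgeR's quasi-likelihood test on UMIs summed by class and library, with library as a block and Benjamini-Hochberg adjustment over the 10590 genes tested. The B class of KR+, with fewer than 10 cells, did not enter, so B cells had 2 sums and the other classes 3.

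All 7 members were higher in B cells than in CD8 T cells, where 12.3% of all genes tested were called higher. *H2-Aa* was 131-fold higher (log2 7.03 ± 0.90 SE, adjusted p = 5.4e-05 by edgeR), *Cd74* 103.5-fold (6.69 ± 0.58, adjusted p = 1.5e-06) and *Ciita* 47.1-fold (5.56 ± 0.41, adjusted p = 3.0e-07). *H2-DMa* and *H2-DMb1* differed least, at log2 4.31 ± 0.22 and 4.15 ± 0.56. The members' median log2 difference was 6.57, against -0.04 over all genes. The size of these differences rests on the low level in CD8 T cells. With CD8 T cells restricted to those with *Cst3* at 0 or 1 UMI, described below, *H2-Aa* differed by log2 9.23 in B cells, 7.15 in pDCs and 9.58 in myeloid cells.

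All 7 were higher in myeloid cells too, against 21.7% of all genes called higher. *H2-Aa* was 173-fold higher (log2 7.43 ± 0.90, adjusted p = 1.2e-05 by edgeR), and *H2-DMb1* 145-fold (7.18 ± 0.58, adjusted p = 3.0e-07). The smallest difference was that of *H2-DMa* (5.12 ± 0.21), and the median was 7.18 against -0.14 over all genes.

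All 7 were likewise higher in pDCs than in CD8 T cells, against 25.3% of all genes called higher, but by less, with a median log2 difference of 4.33 against -0.06 over all genes. *H2-DMb1* was 38.5-fold higher (log2 5.27 ± 0.54, adjusted p = 1.5e-06 by edgeR), *H2-Aa* 33.0-fold (5.05 ± 0.82, adjusted p = 0.00013) and *Ciita* 8.31-fold (3.06 ± 0.46). In these 3 comparisons every member was higher in each library that entered the fit. Without the KR+ library the pDC difference of *H2-Aa* fell to 3.94 on the log2 scale, that of *H2-Ab1* to 3.31, of *H2-Eb1* to 3.01, of *H2-DMb1* to 4.55 and of *Cd74* to 4.30. Without KG+ 1 *H2-Aa* stood at 5.65 and *H2-Eb1* at 4.95, and without KG+ 2 *H2-Aa* stood at 5.80, *H2-Ab1* at 4.88 and *H2-Eb1* at 5.18.

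Against B cells, myeloid cells had more of both H2-DM genes and no other call among the members. *H2-DMb1* was 8.19-fold higher (log2 3.03 ± 0.59, adjusted p = 0.0013 by edgeR) and *H2-DMa* 1.75-fold (0.81 ± 0.21, adjusted p = 0.0090), each in both KG+ libraries. These are 2 of 7 members, where 18.2% of all genes were called higher. The *H2-DMb1* difference depends on how counts divided between it and its paralog *H2-DMb2*. The pair summed to 1042, 830 and 362 CPM in myeloid cells and 769, 631 and 338 CPM in B cells. For the other 5 the differences ranged from 0.03 ± 0.51 for *Cd74* to 0.63 ± 0.59 for *H2-Ab1*, with errors that leave room for a difference in either direction. Without KG+ 1, which leaves a single B sum, both calls were lost (*H2-DMb1* 2.84, *H2-DMa* 0.76), and likewise without KG+ 2 (3.12 and 0.76).

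Against B cells, pDCs were lower in 4 of 7 members, where 17.3% of all genes were called lower. *Ciita* fell by 2.50 on the log2 scale (SE 0.44, adjusted p = 0.00063 by edgeR), *H2-Eb1* by 2.53 (SE 0.81, adjusted p = 0.026), *H2-Ab1* by 2.27 (SE 0.61, adjusted p = 0.011) and *Cd74* by 1.76 (SE 0.52, adjusted p = 0.017), each in both KG+ libraries. *H2-Aa* missed the threshold (-1.99 ± 0.81, adjusted p = 0.074). *H2-DMa* (-0.08 ± 0.21) and *H2-DMb1* (1.12 ± 0.57, adjusted p = 0.14) were not called. None of the 4 calls held without KG+ 1 (*Ciita* -2.24, *H2-Eb1* -1.94, *H2-Ab1* -1.83, *Cd74* -1.34) or without KG+ 2 (-2.18, -2.11, -2.07 and -1.69), while without KR+ *H2-Aa* (-2.67) and *H2-DMb1* (0.80) were called as well, with *H2-Eb1* at -3.41 and *H2-Ab1* at -2.90.

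**Figure D2:**
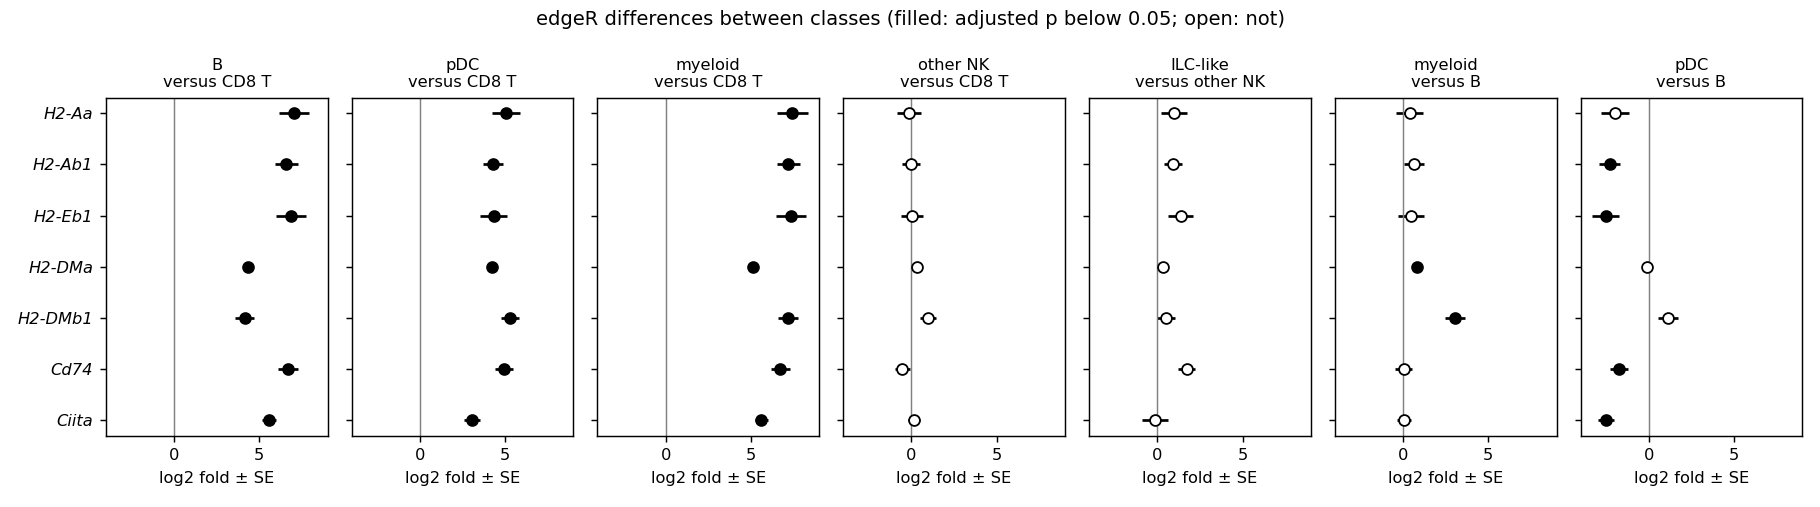
Log2 differences of the 7 genes between classes (points, with bars of 1 SE) from the edgeR fit, filled where the adjusted p was under 0.05. The comparisons of B cells, pDCs and myeloid cells with CD8 T cells lie between 3.06 and 7.43, and those of other NK cells with CD8 T cells lie between -0.53 and 0.96 and are all open.

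The relatives of the members in the class II region separated B cells from the other antigen-presenting classes. The list held *H2-DMb2*, *H2-Oa*, *H2-Ob*, *H2-Eb2* and *H2-Ea*, of which *H2-Ea* had no entry under that name among the features counted. *H2-Oa* and *H2-Ob* encode H2-O, an inhibitor of H2-DM. All 4 genes tested were higher in B cells than in CD8 T cells, where 12.3% of all genes were called higher. Against B cells, 4 were lower in myeloid cells, where 17.4% of all genes were called lower, and 4 in pDCs, where 17.3% were. *H2-Ob* measured 450, 389 and 233 CPM in B cells, 83.4, 51.6 and 18.2 in myeloid cells and 3.82, 3.01 and 5.50 in pDCs. The log2 difference from B cells was -2.44 ± 0.43 in myeloid cells (adjusted p = 0.00065 by edgeR) and -6.51 ± 0.55 in pDCs (adjusted p = 1.2e-06). *H2-Oa* in pDCs (100, 73.5 and 178 CPM) came nearer to B cells (270, 217 and 105 CPM). It lay below B cells in both KG+ libraries and above them in KR+, whose 9 B cells did not enter the fit.

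*H2-DMb2* mirrored *H2-DMb1*. It measured 666, 524 and 303 CPM in B cells, 50.6, 42.9 and 38.2 CPM in myeloid cells and 8.41, 5.16 and 40.3 CPM in pDCs, with B cells above both others in every library. Its log2 difference from B cells was -3.60 ± 0.62 in myeloid cells (adjusted p = 0.00053 by edgeR) and -5.41 ± 0.67 in pDCs (adjusted p = 3.6e-05). Of the UMIs of both DM β genes, *H2-DMb2* took 86.6%, 82.9% and 89.7% in B cells, 4.85%, 5.17% and 10.6% in myeloid cells and 3.59%, 2.75% and 15.5% in pDCs. Summed, the pair gave 769, 631 and 338 CPM in B cells, 1042, 830 and 362 in myeloid cells and 234, 188 and 260 in pDCs, so the lower *H2-DMb1* of B cells against pDCs was not seen in the sum, and the gap between myeloid and B cells was much narrower there. How alike the paralogs are in sequence, and how the counting assigned reads that match both, was not tested, so their division is uncertain. Their promoters, shown above, hold the same pair of boxes at the same spacing.

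**Figure D3:**
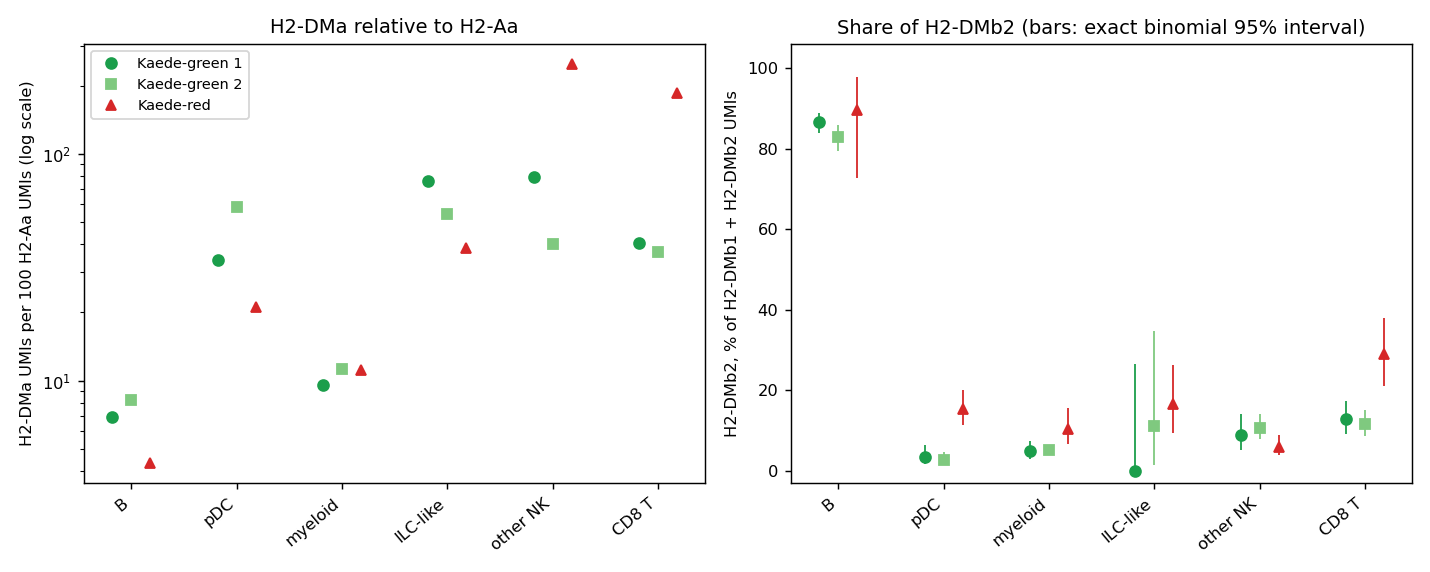
Left, *H2-DMa* UMIs for every 100 *H2-Aa* UMIs (log axis) by class and library. Right, the percentage of *H2-DMb1* and *H2-DMb2* UMIs that were *H2-DMb2*, with exact binomial 95% intervals. In pDCs the left value is 21.2 to 58.1 against 4.33 to 8.20 in B cells, and B cells alone lie above 80% on the right.

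Among 8 regulators of class II, the RFX and NF-Y subunits and CREB1 that occupy the promoter boxes and *March1*, a ubiquitin ligase that removes class II from the surface, *March1* set the classes apart. It measured 43.8, 32.4 and 34.98 CPM in B cells, 22.2, 33.9 and 11.9 in pDCs and 75.8, 50.9 and 47.3 in myeloid cells, and at most 0.546 CPM in the other 3 classes. It was higher than in CD8 T cells by log2 6.68 ± 0.51 in B cells, 6.07 ± 0.44 in pDCs and 7.70 ± 0.45 in myeloid cells (adjusted p at most 3.6e-07 by edgeR). The DNA-binding factors had smaller differences. *Nfya* was higher than in CD8 T cells by 1.42 ± 0.20 in myeloid cells (adjusted p = 6.3e-05 by edgeR), 0.89 ± 0.24 in B cells and 0.56 ± 0.18 in pDCs, and *Rfx5* by 1.28 ± 0.32 in B cells. *Rfxap* (-0.75 ± 0.15), *Nfyb* (-0.67 ± 0.18) and *Creb1* (-0.47 ± 0.18) were lower in pDCs. Of the 8, 3 were higher in B cells, where 12.3% of all genes were called higher and 12.2% lower. In myeloid cells 3 were higher and 1 lower, against 21.7% and 22.5% of all genes, and in pDCs 2 were higher and 3 lower, against 25.3% and 26.3%, counts near the background. Between myeloid and B cells, where 18.2% of all genes were called higher and 17.4% lower, the lowest adjusted p among the 8 was 0.084 by edgeR, for *March1* (1.02 ± 0.44).

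Of 6 processing enzymes, which cut antigen and the invariant chain, 5 were higher and 1 lower both in pDCs and in myeloid cells than in CD8 T cells, and 3 were higher and 1 lower in B cells, to be read against the shares of all genes just given. The lower one was *Ctsd* each time. *Ctsl* measured 1343, 1170 and 2426 CPM in pDCs and at most 116.5 CPM in any other class, and was higher in pDCs than in B cells by log2 6.76 ± 0.79 (adjusted p = 2.1e-05 by edgeR). *Lgmn*, an asparaginyl endopeptidase, was higher in myeloid than in CD8 T cells by 6.83 ± 0.73. Against B cells, 5 of the 6 were higher in myeloid cells, where 18.2% of all genes were, and 2 in pDCs, where 16.7% were. Of the 3 costimulatory genes *Cd80*, *Cd86* and *Cd40*, all were higher in myeloid than in CD8 T cells (*Cd40* by 7.07 ± 0.57), where 21.7% of all genes were. In B cells 2 were higher, where 12.3% of all genes were. In pDCs 1 was higher and 1 lower, *Cd80* (-3.19 ± 0.61), where 25.3% and 26.3% of all genes were.

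Among the classes with little class II few differences passed. Between other NK and CD8 T cells none of the 7 members was called by edgeR at an adjusted p of 0.05, 0 at an unadjusted p under 0.05 and 0 by DESeq2, where 18.0% of all genes were called in either direction. The differences ran from -0.53 ± 0.45 for *Cd74* to 0.96 ± 0.47 for *H2-DMb1*. Without the KR+ library *H2-DMb1* was called, at log2 0.53. Between ILC-like and other NK cells edgeR also called 0 of 7, where 1.59% of all genes were called. *Cd74* had the lowest p there (log2 1.72 ± 0.48, adjusted p = 0.12 by edgeR), was the only member at an unadjusted p under 0.05, and was the 1 member called by DESeq2. It was higher in ILC-like cells in 3 of 3 libraries, by log2 1.85, 0.36 and 3.43. Without KG+ 2 its difference was 2.61 and without KR+ 0.95, neither called. The direction of *H2-Aa* and *H2-DMb1* between these classes turned without KR+ (-0.24 and -0.29).

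In NK and T cells the members' UMIs sat in few cells. Cells with 10 or more UMIs of the 7 genes made up 2.77%, 3.96% and 2.98% of CD8 T cells and held 84.4%, 67.3% and 52.4% of the class's member UMIs. In other NK cells 24, 44 and 71 such cells held 69.8%, 65.7% and 43.6%, and in ILC-like cells 11.8%, 8.75% and 18.3% of the cells held 78.8%, 62.1% and 86.2%. In B cells of the KG+ libraries, by contrast, at least 99.5% of the cells had 10 or more. The CD8 T cells with 10 or more also had more RNA, with a median of 20233, 24567 and 23642 UMIs against 8960, 10446 and 14109 in the rest, and 88.1%, 92.7% and 98.4% of them had at least 2 UMIs of *Cst3*, a cystatin gene abundant in dendritic and myeloid cells, against 34.3%, 49.9% and 71.5% of the rest. The part that doublets or RNA of other cells have in these values was not tested.

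**Figure D4:**
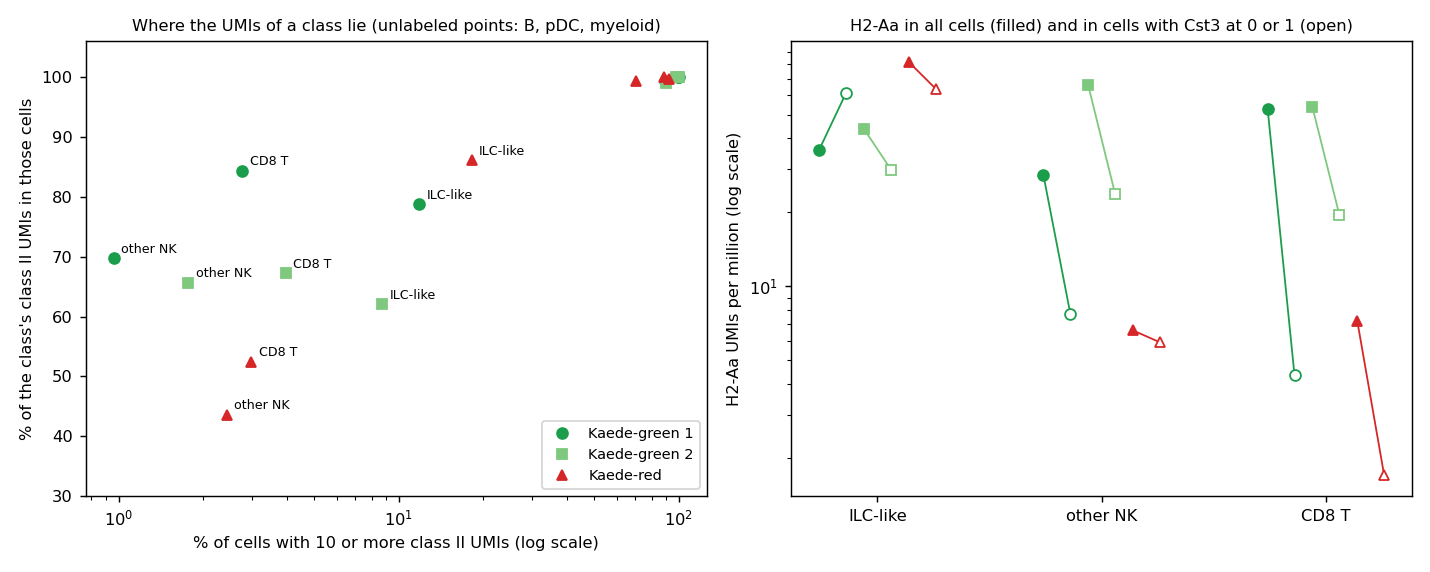
Left, for each class and library, the percentage of cells with 10 or more member UMIs (log axis) against the percentage of the class's member UMIs in them. Right, *H2-Aa* CPM (log axis) in all cells (filled) and in cells with *Cst3* at 0 or 1 (open). CD8 T and other NK points lie left of 4% of cells yet hold 43.6% to 84.4% of the UMIs, and in CD8 T cells the open points (4.35, 19.5 and 1.70 CPM) lie below the filled ones.

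Restricting these classes to cells with *Cst3* at 0 or 1 UMI, a choice made after seeing the data, lowered *H2-Aa* in CD8 T and other NK cells and moved it either way in ILC-like cells. *H2-Aa* was then 4.35, 19.5 and 1.70 CPM in CD8 T cells, 7.75, 23.7 and 5.92 in other NK cells and 61.3, 29.9 and 63.7 in ILC-like cells, from 28, 19 and 57 UMIs. All ILC-like libraries now lay above all libraries of both other classes. *Cd74* was 372, 110 and 316 CPM in ILC-like cells against 26.9, 58.0 and 21.9 in other NK cells, a log2 difference of 2.92 (adjusted p = 0.0088 by edgeR). Few cells carried these ILC-like values. Of 60, 73 and 82 such cells, 6, 3 and 6 had 10 or more member UMIs and held 82.1%, 30.9% and 76.1% of the member UMIs, and a single cell held 55.5%, 12.3% and 38.0%. *H2-DMa* changed little, at 16.3, 15.3 and 13.0 CPM in CD8 T cells and 24.1, 23.6 and 34.6 in ILC-like cells. Since *Cst3* is itself a gene of antigen-presenting cells, this restriction could also remove cells that make class II.

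To compare shares of cells at equal depth, 2000 UMIs were drawn from each cell that had as many. *H2-Aa* was seen in 98.6%, 99.2% and 66.7% of B cells, 55.3%, 45.7% and 70.7% of pDCs and 88.5%, 70.6% and 37.8% of myeloid cells. It was seen in 1.86%, 5.20% and 0.657% of CD8 T cells, the class expected to lack class II. Other NK cells had 1.32%, 5.57% and 0.652%, close to the CD8 T values. The part of other cells' RNA in either class was not tested. ILC-like cells had 3.23%, 6.88% and 5.16%. *Cd74* separated them further, in 21.5%, 20.0% and 21.0% of ILC-like cells against 5.83%, 13.4% and 6.43% of CD8 T cells and 3.80%, 11.5% and 3.29% of other NK cells. Median depth before thinning was 7832, 10124.5 and 14660 UMIs in ILC-like and 9062, 10699.5 and 14340.5 in CD8 T cells. Unthinned, *H2-Aa* was in 5.38%, 22.5% and 13.9% of ILC-like and 4.96%, 21.1% and 2.54% of CD8 T cells, and KG+ 2 was the highest library in CD8 T, other NK and ILC-like cells.

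The member UMIs of the low classes were also set beside the amount that RNA of B cells, pDCs and myeloid cells would bring. For each source, marker genes were taken (such as *Ms4a1*, *Klk1* and *C1qa*). Their UMIs in the low class, multiplied by the source's ratio of member to marker UMIs, gave that amount. This counts every marker UMI in a low class as coming from the source, which was not tested. Conventional dendritic cells in no class, gated as given below, were not among the sources, though they held 15.9%, 31.7% and 17.9% of the member UMIs. The myeloid source itself held cells with *Flt3* and no C1q UMI, 54 of 85 in KG+ 2 and 3 of 37 in KR+. Their member UMIs entered the amount while they added no UMI of the myeloid markers. *Pacsin1*, a pDC marker used, measured 184, 191 and 311 CPM in pDCs. It also measured 15.7, 11.6 and 11.7 CPM in B cells and 14.7, 12.8 and 8.42 CPM in CD8 T cells. In KR+ the B markers had 33 UMIs in B cells and 174 in other NK cells. In KG+ 1 the myeloid source had 0 C1q UMIs, so no value could be formed. A C1q UMI was in 6 of 85 myeloid cells of KG+ 2 and in 3 of 37 of KR+. In KG+ 2 and KR+ the observed sum was 0.409 and 0.835 times that amount in CD8 T cells, 0.572 and 0.559 times in other NK cells, and 1.44 and 1.93 times in ILC-like cells. *H2-DMa* had the highest ratio of any member, with 3.91 and 5.26 times in ILC-like, 1.69 and 8.76 times in other NK and 0.944 and 4.87 times in CD8 T cells. *H2-DMb1* had 1.21 and 3.47 times in ILC-like, 0.734 and 5.54 times in other NK and 0.310 and 0.601 times in CD8 T cells. *Ciita* had 0.488 and 4.01 times in CD8 T cells and between 0.987 and 1.93 times in the other 2 classes. These ratios moved widely with the source markers and gates, and no call was made from them.

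Time in the tumor could be described but not tested, since there was 1 KR+ library and color, library and depth cannot be told apart. Over all cells kept, the 7 genes together measured 1331, 1908 and 394 CPM, so the whole KR+ library held the least class II RNA. The part of this total in the values of single classes was not tested. Summed over the 7 genes, CD8 T cells had 350, 367 and 105 CPM, so that KR+ lay below the mean of the KG+ libraries by 1.77 on the log2 scale, where the KG+ libraries differed by 0.07 from each other. The sum was lower in KR+ by 0.97 in B cells (31720, 24359 and 14226 CPM) and by 0.84 in myeloid cells (37792, 28966 and 18448 CPM), against KG+ differences of 0.38 in each. ILC-like cells went the other way (477, 427 and 658 CPM, log2 0.54 against a KG+ difference of 0.16). In other NK cells the KR+ sum was the lowest (186, 416 and 89.7 CPM, log2 -1.63), but its log2 difference from KG+ 1 was -1.06 where the KG+ libraries differed by 1.16. In pDCs it was the highest (7099, 5202 and 9618 CPM, log2 0.66), but it lay 0.44 above KG+ 1 where the KG+ libraries differed by 0.45.

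By gene, KR+ lay outside both KG+ libraries by more than these differed for 7 of 7 members in B cells (6 lower and *Ciita* higher, by 0.74) and 7 of 7 in myeloid cells, 6 in CD8 T cells, 4 in other NK cells, and 3 each in pDCs and ILC-like cells. No share of all genes meeting this rule was set beside these counts or those below, so they describe the members alone. In CD8 T cells *H2-Aa* was lower by 2.88 and *H2-Eb1* by 2.89 but *H2-DMa* by 0.62. *Ciita* was lower by 2.10 in myeloid cells, from few UMIs, and higher by 0.98 in pDCs, where *H2-Eb1* was higher by 1.35. The B values rest on 9 KR+ cells. Without the *Igkc*-rich one the sum was 22550 CPM, near KG+ 2, the difference was -0.30 against a KG+ difference of 0.38, and 3 of 7 members lay outside the KG+ libraries by more than these differed. In myeloid cells the sum per 10000 UMIs had a median over cells of 449, 295 and 21.8, and the 34 KR+ cells with no C1q UMI had a median of 20.1, while the 3 KR+ cells with *Flt3* and no C1q had 710. The share of *Flt3* cells in the gate thus moved with the myeloid difference, and its part in it was not tested. In cells with *Cst3* at 0 or 1 the color differences of the sum did not stand outside the KG+ spread. This cut on raw UMIs kept 1554 of 2420, 1675 of 3460 and 1179 of 4260 CD8 T cells. Of other NK cells it kept 1961 of 2497, 1532 of 2480 and 1054 of 2915. The smallest part was thus kept in KR+, the deepest library, and the part of depth in these values was not tested. The CD8 T sum was then 57.2, 149 and 40.2 CPM, a KR+ difference of -1.20 where the KG+ libraries differed by 1.38. In other NK cells it was -0.76 against 1.12 and in ILC-like cells 0.41 against 1.45, and 1, 1 and 2 of the 7 members in these classes lay outside the KG+ libraries by more than these differed.

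**Figure D5:**
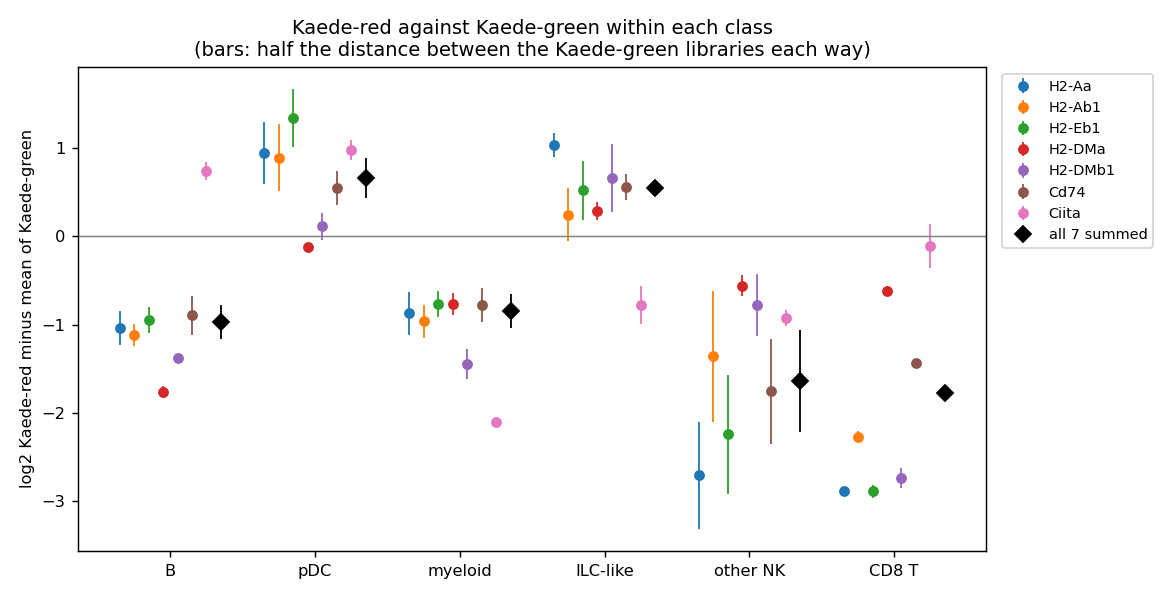
Log2 difference of the KR+ library from the mean of the KG+ libraries for each gene and for the sum of 7 (diamonds), by class. Bars have the length of the distance between the KG+ libraries and are no test. The summed difference is -1.77 in CD8 T cells and 0.54 in ILC-like cells.

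The members moved together over the 17 sums of class and library. The correlation of each gene's log2 CPM with that of the other 6 summed ranged from 0.94 for *H2-DMb1* to 0.99 for *H2-Aa*, a description over points that share libraries and classes. Among 4012 other genes with at least 50 CPM in some class, the patterns most like the summed members' were those of *Wdfy4* (r = 0.97), *March1* (0.97), *Cyp4f18* (0.96), *Btk* (0.96), *Rasgef1b* (0.96), *Gm6377* (0.95), *BC028528* (0.95), *Myo1c* (0.94), *Nsf* (0.94) and *Erlin1* (0.93). *Wdfy4*, known for its role in cross-presentation by dendritic cells, averaged 69.5 CPM in B cells, 29.0 in pDCs and 142 in myeloid cells and between 0.480 and 1.33 CPM in the other classes.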

How the data were processed

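Cells sorted from MC38-Ova tumors were profiled with the 10x Genomics 3′ v3 assay. The authors deposited unnormalized UMI counts per gene and cell barcode, made with Cell Ranger (version 6.1.2 in the submitters' processing notes, 6.0.1 in the file headers) against mm10. Barcodes with 1000–6000 detected genes and a mitochondrial share below 7.5% were retained. The class gates are given in the report, with *Cd3e* at most 1 for pDCs, myeloid and NK lineage cells, and cells meeting the gates of more than 1 class were left out. No doublet caller was applied in the main analysis, since Scrublet's automatic threshold marked 2.80%, 0.0568% and 0.00836% of the libraries. An alternative removed the 5% with the highest scores. UMIs were summed by class and library (at least 10 cells), giving 395565 to 71299408 UMIs in a sum.

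Sums were fitted in edgeR 4.0.16 (R 4.3.3) with class and library as terms, TMM factors, filterByExpr and a two-sided quasi-likelihood test. The SE given with an edgeR difference was derived from that test, as the absolute log2 difference divided by the square root of its F statistic. DESeq2 1.42.0 was an alternative. Other steps used Python 3.11.15 and Scanpy 1.11.5. The edgeR step was checked on simulated counts. Intervals are exact 95% Poisson or binomial and cover counting error only. Color differences were log2 ratios of CPM after adding 0.5 UMIs. Of the feature IDs, 32158 (99.6%) were in GENCODE vM21 (GRCm38).

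The members, classes and gene lists were chosen with earlier results of these data known. Named genes were the members, the 10 genes most like their sum, and up to 4 genes of a list by size of change. Alternatives chosen after seeing the data were the *Cst3* restriction, *Cst3* as a marker of the source, the KR+ B class without its *Igkc*-rich cell and the myeloid split by C1q and *Flt3*.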

Additional observations from a re-analysis of the deposited data

Results flagged for a closer look

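*Ciita* in other NK against CD8 T cells had different directions by color. The log2 difference was 0.04 and 0.73 in the KG+ libraries and -0.43 in the KR+ library, which rests on 35 and 58 *Ciita* UMIs in the whole KR+ classes. The difference between the colors was not tested.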

How the results depend on the processing

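All 7 members stayed called higher in B cells, pDCs and myeloid cells than in CD8 T cells under every alternative run (*H2-Aa* in pDCs from log2 3.94 to 7.15), and no value of a called member reversed. The values for single members were also compared under the alternatives other than those added after seeing the data. Of these, 550 kept their side of the threshold, 24 became called and 14 lost the call. The 550 include uncalled values whose direction turned, such as *H2-Aa* and *H2-DMb1* between ILC-like and other NK cells. Leaving out 1 library at a time, the genes called ranged from 557 to 3572 for B against CD8 T cells (2600 with all), 3369 to 5662 for pDCs against CD8 T (5470), 2581 to 4490 for myeloid against CD8 T (4686), 627 to 3589 for other NK against CD8 T (1903), 25 to 407 for ILC-like against other NK (168), 1108 to 3956 for myeloid against B (3775) and 1197 to 4186 for pDCs against B cells (3606), and the members called from 0 to 1, 0 to 2 and 0 to 6 for other NK against CD8 T, myeloid against B and pDCs against B. Where edgeR called 0 members without KG+ 1, 1 in each of the comparisons with B cells had an unadjusted p under 0.05, and without KG+ 2 there were 1 (myeloid) and 3 (pDC). A fit of only the classes compared leaves few residual degrees of freedom. In it 2790 genes were called for myeloid against CD8 T and 3853 for other NK against CD8 T. For ILC-like against other NK, 617 of 11668 genes and 3 members were called. For myeloid against B, 6 members were called higher, where 1844 of 8131 genes were called higher and 1343 lower. With no filter on low counts other NK against CD8 T and ILC-like against other NK called 3135 and 398 of 21757 genes and 1 and 2 members. With no library block these comparisons called 1164 and 105 genes. DESeq2 called 1 member higher for ILC-like against other NK, where 159 of 10590 genes were called higher and 85 lower. For other NK against CD8 T, stricter gates called 2 members (*H2-DMa* and *H2-DMb1*), and 1 (*H2-DMb1*) was called with cells of more than 1 class kept and with *Cst3* at 0 or 1, where ILC-like against other NK also had 1. All these calls were higher. Of all genes in the first comparison, 871 of 10042 were higher with stricter gates. With cells of more than 1 class kept 770 of 10033 were, and 898 of 9655 with the *Cst3* restriction. That restriction gave 96 of 9655 genes higher for ILC-like against other NK. With no filter on cells, 2 members were called lower for pDCs against B cells, where 1582 of 9991 genes were called lower. The KR+ difference of B cells was then -1.82, while without the *Igkc*-rich cell it was -0.30. The KR+ difference of ILC-like cells was 0.27 with cells of more than 1 class kept and 0.41 in cells with *Cst3* at 0 or 1, that of other NK cells -0.76 in the latter, and that of CD8 T cells -1.86 with high Scrublet scores removed, -1.88 with cells of more than 1 class kept and -1.20 with *Cst3* at 0 or 1. The ratio of observed to source-derived UMIs, as the mean of libraries, was 1.68 for ILC-like, 0.565 for other NK and 0.622 for CD8 T cells. It became 2.32, 1.27 and 0.970 with the myeloid source alone and 5.05, 5.73 and 3.48 with stricter gates, 1.29 and 0.547 for ILC-like and other NK with *Cst3* as the source marker, 2.24 and 0.487 with cells of more than 1 class kept, and 0.527 for other NK with high Scrublet scores removed. The mean share of cells with *H2-Aa* unthinned was 72.7% in pDCs, 13.9% in ILC-like, 9.30% in other NK and 9.52% in CD8 T cells. The causes of these shifts were not tested. No paired analysis was possible because the KG+ and KR+ groups share fewer than 2 replicate numbers; the classes of a library were paired by the library block. The KR+ B class is limited by its 9 cells, and *Ciita* in ILC-like cells by its 1 to 3 UMIs in each sum.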

Other observations

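A large part of the members' UMIs lay in cells outside the 6 classes. Cells in no class with *Flt3*, at least 3 *Cst3* UMIs and at most 1 *Cd3e* UMI, a gate of conventional dendritic cells, numbered 32, 127 and 45 in KG+ 1, KG+ 2 and KR+ and held 15.9%, 31.7% and 17.9% of each library's member UMIs. Their *H2-Aa* level was 6788, 6536 and 4524 CPM and their *Cd74* level 14583, 15418 and 9481 CPM, in the range of the myeloid and B classes. B cells held 26.9%, 9.0% and 1.9% of the member UMIs, myeloid cells 13.2%, 18.5% and 15.5%, and pDCs 8.2%, 5.2% and 16.1%. CD4 T cells, gated as *Cd3e* and *Cd4* without *Cd8a*, had 126, 48.8 and 35.1 CPM of *H2-Aa*, above CD8 T cells in KG+ 1 and KR+ and just below them in KG+ 2.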
